A study of Drosophila melanogaster with 29 samples.

Results

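PEN1 single neurons were the cells of plates labelled with the neuronal cell type PEN1 and sorted by FACS from the driver line SS62862 with the reporter nlstdTomato, a red fluorescent protein sent to the nucleus. The members were all wells of the 96-well plates Plate_389, Plate_391, Plate_392, Plate_394, Plate_395 and Plate_396 that lay outside positions E12 to H12 and held at least 500 genes. The rule gave 380 wells, of 576 wells on these plates and of 742 wells that pass the same rule on all 11 single-cell plates of the study. The study sequenced neuron types of the fly compass network in bulk, from few cells and from single cells. The PEN1 flies were female adults aged 3 to 5 days, and 60 to 100 brains were pooled for a sample. All 6 plates carried the same driver and reporter, so 1 line stands for the cell type and no plate has another genotype or treatment to be set against. The comparisons below are therefore between wells of the same plate that did or did not hold a transcript.

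PEN neurons link the protocerebral bridge of the central complex with the ellipsoid body and the paired noduli. In the fly's heading circuit they are active when the animal turns and help to move the bump of activity that marks its heading. Fly neurons make acetylcholine with choline acetyltransferase (ChAT) and load it into vesicles with the transporter VAChT, and many also cut neuropeptides from precursors that are stored in dense core vesicles. A split-GAL4 driver line such as SS62862 expresses its reporter only where both parts of the driver are active, and a sorted cell can still differ from its neighbours in type or state.

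The plates gave 70, 68, 55, 57, 55 and 75 wells in the order above. A well held a median of 46787 counts on genes and 1003 genes, with the plate medians between 23035 and 85350 counts. Reporter transcript was present at 10 or more counts in 241 wells and at 0 to 9 counts in 139. Wells with the reporter held a median of 59720 counts and 1070 genes, and wells without it 25042 counts and 822 genes. The 5 wells with over 4000 genes, on 5 plates, stood apart from all others, the next of which had 2273 genes. The positions E12 to H12 held at most 525 genes or at least 4116 genes on Plate_389, Plate_391 and Plate_392, and 249 to 1483 genes on Plate_394, Plate_395 and Plate_396. The study states ERCC and whole brain control wells without their positions, so control wells elsewhere on the last 3 plates cannot be told apart from cells by position. At E12 and F12 of the first 3 plates, where at most 525 genes were found, rdgA had 0 to 5 counts and each other marker at most 1. The threshold of 500 genes fell between a well with 498 and one with 505 genes. The 24 wells at most 50 genes below the threshold held a median of 6618.5 counts, and the 22 wells less than 50 genes above it held 8976.5, each group with 7 reporter wells. No 2 of the 576 wells had identical counts, and no well name occurred more than once. Whether the counts are of unique molecules is not stated. The binomial interval given below treats the wells of all plates as independent, so it does not cover differences between plates.

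Most PEN1 wells carried the genes of a cholinergic, peptide-making neuron. To keep depth from setting the shares, each well was thinned to 10000 counts, which 336 of the 380 wells reached, and a gene was present with 1 count or more. The diacylglycerol kinase gene rdgA was present in 291 of 336 wells (86.6%, plates 79.2 to 92.5%). Dh44, the precursor of diuretic hormone 44, was present in 278 wells (82.7%, plates 75.4 to 87.5%), and ChAT in 276 (82.1%, plates 75.4 to 89.1%). The peptide precursor gene spab was present in 255 wells (75.9%, plates 70.2 to 86.2%). CG43658 was the exception among the 5 markers, with 120 wells (35.7%, plates 24.6 to 43.4%, 95% exact binomial interval over pooled wells 30.6 to 41.1%). At this depth CG43658, given as a marker of the type, was not detected in most wells. Reporter transcript was found in 258 thinned wells (76.8%). Without thinning, over the 380 wells, the 5 markers were in 95, 85.5, 85.5, 82.6 and 42.4% of wells in the same order. At 3 or more thinned counts rdgA was in 252 of the 336 wells, Dh44 in 233, ChAT in 256, spab in 219 and CG43658 in 94.

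Levels of the markers were spread widely among the 380 wells. In CPM (counts scaled to the same sum of 1000000 gene counts in each well, with no correction for gene length), ChAT ran from 0 to 16159 with a median of 1788, and Dh44 from 0 to 8493 with a median of 902. The levels of rdgA ran from 0 to 12915 CPM (median 1414). The range of spab was the widest of the 5, from 0 to 47820.3 CPM (median 1114). CG43658 had a median of 0 and reached 8226 CPM.

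The transmitter genes other than those of acetylcholine were rare. ChAT, VAChT or the choline transporter ChT was present in 301 of 336 wells (89.6%). VAChT was in 127 wells (37.8%) and ChT in 65 (19.3%), and 108 wells held both ChAT and VAChT. ChAT and VAChT come from 1 nested locus on the same strand, so the counting could split their reads. Gad1, which makes GABA, was in 15 wells (4.46%), the vesicular GABA transporter VGAT in 29 (8.63%) and the vesicular glutamate transporter VGlut in 9 (2.68%). Of the 9 VGlut wells, 8 also held an acetylcholine gene, and 4 were among the wells with over 4000 genes. The dopa decarboxylase gene Ddc, needed for dopamine and serotonin, was in 82.7% of wells, while the other monoamine genes Tbh, Vmat, ple, DAT, SerT, Hdc and Tdc2 were in 0.298 to 5.65%.

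**Figure D1:**
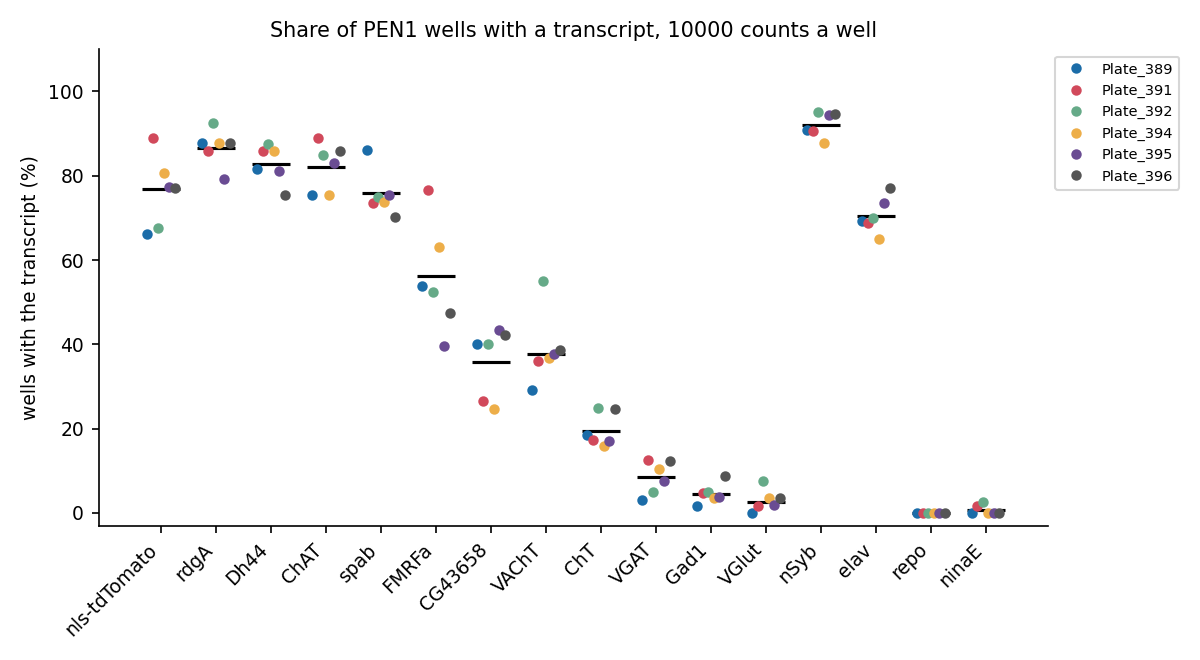
Share of PEN1 wells (percent, vertical axis) with at least 1 count of each transcript after thinning to 10000 counts, for the reporter, markers and genes of other cell types; points are the 6 plates and bars the share over all 336 wells. rdgA, Dh44, ChAT and spab lie at 70.2% or more on every plate, CG43658 and VAChT at 24.6 to 55.0%, and Gad1 and VGlut under 10%.

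The other gene lists give a profile of the same cells. Of the 10 pan-neuronal genes, futsch, which codes for a microtubule protein, was in 92.9% of wells, the synaptic vesicle gene nSyb in 92.0%, the sodium channel gene para in 89.3%, the calcium sensor gene Syt1 in 82.7% and elav in 70.5%. Syx1A, brp, Snap25, cac and Cadps were in 35.7% to 65.5%. The glial gene repo had 0 counts in all 336 thinned wells, which allows up to 0.893% of wells with a count at that depth, and a mean of 0.217 CPM in the 380 wells as deposited, and the most frequent glial genes were nrv2 (9.23%) and Gs2 (8.33%). Of 14 photoreceptor genes only norpA, a phospholipase C gene, passed 1% of wells, at 73.2%, followed by chp and Arr2 at 0.893%. The blood cell gene Pxn was in 17.3%, the fat body gene apolpp in 3.27% and the muscle genes Mhc and up in 2.38% each. The 3 most frequent Kenyon cell genes were dnc in 80.1%, mub in 50.6% and Dop1R1 in 43.2% of wells. The RNA roX1, made in males, was in 1.19% and roX2 in 0 wells of these female flies.

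Among receptors, the nicotinic subunit gene nAChRalpha6 was in 94.3% of wells, nAChRalpha5 in 62.8% and nAChRbeta1 in 58.9%. The GABA-gated chloride channel gene Rdl was in 96.4%, the glutamate-gated chloride channel gene GluClalpha in 55.4% and the muscarinic receptor gene mAChR-A in 53.6%. The dopamine and ecdysteroid receptor gene DopEcR was in 59.2% and Dop2R in 48.5%. The potassium channel gene Sh was in 97.9% and the hyperpolarization-activated channel gene Ih in 83.3%. Among homeobox genes, Lim1 was in 83.3%, ct in 54.2% and Optix in 43.8%, and the zinc finger gene mamo was in 95.8%. Of the neuropeptide genes, FMRFa, the precursor of FMRFamide peptides, followed Dh44 and spab at 56.2%. The dense core vesicle gene IA-2 was in 99.7%, and the peptide processing genes 7B2 and amon were in 86.9% and 81.0%. The clock output gene Pdp1 was in 83.9% and the activity-regulated genes CG14186, Hr38 and sr in 54.2%, 53.3% and 30.1%, with Hr38 between 29.7 and 75.4% on single plates. The most frequent innexin gene was shakB (29.2%), and the most frequent heat shock genes were Hsc70-4 (49.4%) and Hsp83 (44.0%).

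Few genes were shared by nearly all wells. Over the 336 wells, 12029 genes were seen at least once, 288 in at least 50% of wells and 27 in at least 90% of wells on every plate. A thinned well held a median of 738.5 genes, and 1997 genes were in 10 to 90% of wells. The 27 shared genes include the noncoding RNA lncRNA:noe, which alone averaged 81166 CPM over the 380 wells, lncRNA:mimi, the sodium pump gene Atpalpha, the calmodulin gene Cam, Sh, Rdl, nAChRalpha6, the active zone gene Rim and futsch.

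Whether pairs of markers met more or less often than their shares give could not be decided by a test over 6 plates. All 5 markers were present in 55 wells, 4 in 162, 3 in 76, 2 in 30, 1 in 9 and none in 4. The most frequent combination was ChAT, Dh44, rdgA and spab without CG43658, in 116 wells, of which 99 had the reporter, and all 5 together had the reporter in 35 of 55 wells. For 36 pairs of the markers, the reporter, VAChT, VGlut and Gad1, the number of wells with both was set against the number expected from their shares on the same plate. ChAT and Dh44 shared 239 wells (228 expected), ChAT and spab 219 (209 expected), Dh44 and rdgA 247 (241 expected), and rdgA and the reporter 233 (223 expected), each above expectation on all 6 plates. CG43658 and the reporter shared 82 wells (90.8 expected), below it on all 6. An exact two-sided sign-flip permutation test over the plates gave p = 0.03125 for each of these 5 pairs, the smallest it can give. After Benjamini-Hochberg adjustment over the 36 pairs it was 0.225, and no pair passed. With 6 plates a few pairs at the smallest p cannot pass this adjustment, so no conclusion is drawn from it. VGlut and Gad1 met in 5 wells (0.480 expected, exact p = 0.125), and the excess was above expectation on 4 of the 5 plates with VGlut. The wells with over 4000 genes hold 4 of the 9 VGlut and 4 of the 15 Gad1 wells.

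CG43658 marked 1 end of a division within the PEN1 wells. Among 2029 genes present in at least 10% of wells, its rank correlation within plates, averaged over the 6 plates, was highest with Eip93F (0.63, plates 0.54 to 0.71), which codes for an ecdysone-induced transcription factor. The next were Cngl, a cyclic nucleotide-gated channel-like gene (0.56), the protein kinase C gene Pkc53E (0.54), CG44153 (0.50) and trv (0.45). The most negative values were those of haf (-0.51), CG32700 (-0.50) and the homeobox gene ct (-0.47). These are descriptions over 336 wells that share plates and sorting. For comparison, the highest values of the other markers were 0.42 for Dh44 with Atpalpha, 0.36 for spab with CG4577, 0.33 for rdgA with ct and 0.31 for ChAT with igl. CG43658 and Eip93F shared 82 wells (40.6 expected), and CG43658 and haf 22 wells (62.3 expected). CG43658 shared 28 wells with ct (63.4 expected) and 37 with CG32700 (71.9 expected). Each of these 4 counts lay on the same side of expectation on all 6 plates. The genes were picked from these wells, so no test is given.

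Taken as sets of 3, the genes of the ends seldom met. In 60 wells CG43658, Eip93F and Cngl were all present and haf, ct and CG32700 all absent, where independence within plates gives 23.9. In 85 wells haf, ct and CG32700 were all present and the other set absent, where it gives 48.6. A single well held all 6 genes, where it gives 30.7, and that well is one of those with over 4000 genes (4632). Both kinds of well were on every plate, with 13, 6, 7, 8, 12 and 14 wells of the CG43658 set and 12, 18, 7, 20, 11 and 17 of the haf set on Plate_389, Plate_391, Plate_392, Plate_394, Plate_395 and Plate_396. Of the remaining wells 2 held none of the 6 genes, and the others held a mixture or part of a set, most often 1 gene of the CG43658 set with all 3 of the haf set (38 wells). Of the CG43658 set 32 of 60 wells had the reporter at 10 or more counts, and of the haf set 85 of 85. The CG43658 set held a median of 46924 counts and 956 genes, and the haf set 78493 counts and 1277 genes. The part of depth and of the reporter in the division was not tested on these sets, which were chosen after the values were seen.

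**Figure D2:**
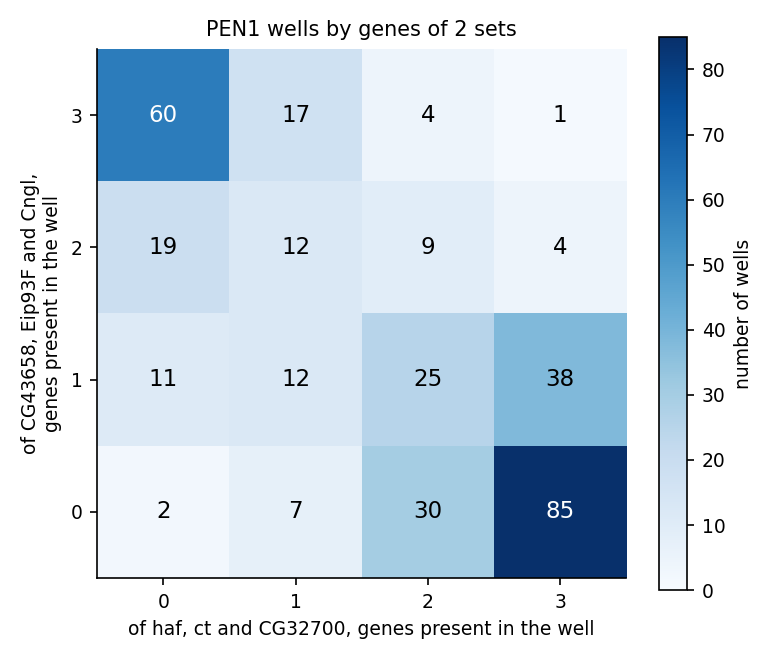
Number of PEN1 wells (colour and printed number) by how many of CG43658, Eip93F and Cngl (vertical axis) and how many of haf, ct and CG32700 (horizontal axis) were present at 10000 counts a well. The highest counts lie at 2 corners, with 60 wells at 3 and 0 genes and 85 wells at 0 and 3, followed by 38 wells at 1 and 3 and 30 wells at 0 and 2, and 1 well lies at 3 and 3.

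The sets had most PEN1 markers in common. In the CG43658 set and the haf set, Dh44 was present in 54 of 60 and 82 of 85 wells, ChAT in 53 of 60 and 77 of 85 wells, spab in 50 of 60 and 61 of 85 wells and rdgA in 45 of 60 and 83 of 85 wells. Lim1 was in 51 of 60 and 79 of 85 wells, mamo in 59 of 60 and 85 of 85 wells and nSyb in 56 of 60 and 84 of 85 wells. Other genes went with 1 set. FMRFa was in 7 of 60 and 71 of 85 wells, and Optix, a homeobox gene, in 0 of 60 and 69 of 85 wells. The dopamine receptor gene Dop2R was in 2 of 60 and 61 of 85 wells, Drl-2, a Wnt receptor gene of the derailed family, in 1 of 60 and 68 of 85 wells, and eys in 2 of 60 and 56 of 85 wells. In the other direction, robo2, a receptor gene for the guidance cue Slit, was in 31 of 60 and 1 of 85 wells, and CG44153 in 31 of 60 and 1 of 85 wells. The homeobox gene pros was in 60 of 60 and 74 of 85 wells, with a median of 61.5 against 12 of 10000 counts. Gad1 and VGlut were in at most 1 well of either set. These shares describe sets defined on the same wells and carry no test.

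Wells with CG43658 had more Eip93F, Cngl, Pkc53E and svr and less haf, CG32700, Optix and GluClalpha than wells without it. The wells of each plate were summed by class, 120 wells with CG43658 and 216 without it, and edgeR tested 6657 genes with the plate as a block. At an adjusted p of 0.05 it called 69 genes, of which 38 were higher in wells with CG43658 (0.571% of genes tested) and 31 lower (0.466%). The direction was the same on every plate for 53 of the 69. Wells with CG43658 held a median of 49005.5 counts and 979 genes, and wells without it 56564.5 counts and 1072 genes. Their reporter share was 56.7%, against 77.3%, and their median mitochondrial share of counts 1.49%, against 3.37%. Among wells with at least 10 reporter counts alone, 47 genes were called, 41 of them among the 69. The median log2 difference of all genes tested was -0.64, and -0.19 over the genes in at least 10% of wells, so log2 values are to be read against those. The classes summed to 7329729 and 15023702 counts. With upper-quartile scaling the split was 34 higher and 44 lower, and without the 5 wells over 4000 genes it was 40 and 48. With only genes in at least 10% of wells, an alternative added later, 33 genes were called, 31 of them among the 69, and ct, FMRFa, Dop2R, spab, Hr38 and Mmp2 were no longer called.

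Of the genes higher in wells with CG43658, Eip93F (FBgn0264490) had a lowest, median and highest plate value of 656, 826 and 1178 CPM in wells with CG43658, against 22.0, 96.1 and 171 CPM in wells without it. No plate of one class overlapped the other, and the log2 difference was 3.57 ± 0.39 (SE; edgeR adjusted p = 1.14e-12). Cngl (FBgn0263257) had 2759, 3073 and 4188 CPM in wells with CG43658 and 561, 699.8 and 1100.4 CPM in wells without it, again without overlap (log2 2.18 ± 0.19, edgeR adjusted p = 5.09e-19). Pkc53E (FBgn0003091), activated by diacylglycerol, had 1813, 3263 and 4270.2 CPM in wells with CG43658 and 460.4, 549.7 and 1083 CPM in wells without it (log2 2.35 ± 0.21, edgeR adjusted p = 2.84e-18). It was the only called gene among 12 tested genes of diacylglycerol and phospholipase C signalling. CG44153 (FBgn0265002) had the largest increase among called genes higher on every plate, at 5.86 ± 0.60, with 142, 471 and 938 CPM in wells with CG43658 and 0, 15.9 and 28.4 CPM in wells without it. The zinc finger gene rn (FBgn0267337) averaged 147 ± 87.3 CPM in wells with CG43658 and 13.4 ± 15.7 CPM in wells without it (SD over 6 plates). The allatostatin C receptor gene AstC-R1 (FBgn0036790) averaged 156 ± 56.9 CPM and 10.7 ± 11.2 CPM in the same order, and CG34354 (FBgn0085383) 181 ± 73.4 CPM and 25.1 ± 25.2 CPM. The matrix metalloprotease gene Mmp2 (FBgn0033438) averaged 350.2 ± 261 CPM in wells with CG43658 and 80.5 ± 105 CPM in wells without it, and its plates overlapped. CG15082 was called at 6.49 but was higher on 5 of 6 plates, and 99.3% of its counts came from 10 wells. The adjusted p of rn, AstC-R1, CG34354 and Mmp2 lay between 1.74e-04 and 0.0377 in edgeR.

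Further genes higher in wells with CG43658 were trv, which averaged 1362 CPM in wells with CG43658 and 367 in wells without it, and pros, with 5014 and 2737. The plates of pros overlapped, since Plate_392 had 6925 CPM in wells without CG43658. The highest single well held 17.0% of all pros counts. On Plate_392 a well with 6274 genes held 897320 of the plate's 2843367 counts, with 219 counts of VGlut and 328 of Gad1, and such a well weighs heavily in a sum. Its part in the overlap was not tested. Ddc averaged 2972 ± 309.9 CPM in wells with CG43658 and 1875 ± 233 CPM in wells without it and was higher on all 6 plates (edgeR adjusted p = 0.00382). The carboxypeptidase gene svr, of the peptide processing list, averaged 961 ± 199.6 CPM and 353 ± 86.4 CPM in the same order and did not overlap. The other 7 tested genes of that list did not pass. robo2, beat-IIIb, igl and Hs3st-A, of which robo2, igl and Hs3st-A were chosen after their values were seen, averaged 454, 512, 2355 and 1775 CPM in wells with CG43658, against 74.0, 111, 669 and 501 in wells without it. Of 12 tested heat shock genes, Hsp23, Hsp26, Hsp27 and Hsp67Bc were higher and none lower. The summed level of that list was 8627 CPM in wells with CG43658 (plates 2272 to 21131) and 3263 CPM in wells without it (1478 to 5213), and its plates overlapped. The activity-regulated nuclear receptor gene Hr38 averaged 1782 ± 1142 CPM in wells with CG43658 and 704 ± 329 CPM in wells without it (edgeR adjusted p = 7.97e-04), and was the only one of 7 tested genes of its list to pass. The part of cell stress or RNA quality in these differences was not tested.

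Of the genes lower in wells with CG43658, haf (FBgn0261509, chosen after its value was seen) had 53.4, 193 and 362 CPM in wells with CG43658, against 587, 982 and 1212 CPM in wells without it, as lowest, median and highest plate values. The plates did not overlap (log2 -2.31 ± 0.34, edgeR adjusted p = 1.13e-07). CG32700 (FBgn0267253) had 161, 373 and 972 CPM in wells with CG43658 and 1254, 2056 and 2523 CPM in wells without it, also without overlap (log2 -2.16 ± 0.24, edgeR adjusted p = 2.32e-12). The homeobox gene ct (FBgn0004198) had 24.7, 489 and 1677 CPM in wells with CG43658 and 1016, 1398 and 1474 CPM in wells without it, and was lower on 5 of 6 plates (log2 -1.79 ± 0.32, edgeR adjusted p = 4.20e-05). Of 17 tested genes of the homeobox list ct and Optix were lower and none was higher. The homeobox gene pros, counted in another list, was higher, as given above. Optix (FBgn0025360) averaged 222 ± 113 CPM in wells with CG43658 and 816 ± 217 CPM in wells without it. The dopamine receptor gene Dop2R (FBgn0053517) averaged 479.7 ± 259 CPM and 1873 ± 849.6 CPM in the same order, the only one of 16 tested amine receptor genes to pass. FMRFa (FBgn0000715) averaged 1193 ± 1461 CPM in wells with CG43658 and 4684 ± 2308 CPM in wells without it and was lower on 5 plates (log2 -2.69 ± 0.30, edgeR adjusted p = 2.32e-12). Of the 13 tested neuropeptide precursor genes, the other that passed was the marker spab, in the other direction, with 6332 ± 4221 CPM in wells with CG43658 and 2908 ± 828 CPM in wells without it (edgeR adjusted p = 3.57e-04). The plates of spab overlapped, and it was higher on 4 of 6, with the largest differences on Plate_389, Plate_391 and Plate_396. Each of these plates holds AstA wells, described below, which are high in spab, and 6 of the 8 AstA wells held CG43658. Plate_394 also holds an AstA well, and its spab was at 2540 CPM in wells with CG43658 and 3244 CPM in wells without it. The part of the AstA wells in the difference was not tested.

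The immunoglobulin genes dpr9 and dpr8 averaged 55.6 and 240 CPM in wells with CG43658, against 309.7 and 598 in wells without it, and both were lower on all 6 plates. They were the called members among 28 tested DIP and dpr genes. Of 21 tested beat and side genes beat-VI was lower and beat-IIIb higher. The sodium channel accessory gene Teh1 averaged 96.5 ± 72.5 CPM in wells with CG43658 and 356 ± 71.6 CPM in wells without it. The extracellular matrix gene eys averaged 98.6 ± 108 CPM and 433 ± 152 CPM, and the receptor gene CNMaR 54.6 ± 64.1 CPM and 257 ± 59.8 CPM, in the same order. The gene bur, which codes for GMP synthetase, had 0 to 1.05 CPM in wells with CG43658 and 45.3 to 108 in wells without it, from 21 thinned wells in all. CG14989 had the lowest adjusted p, with 3.14, 11.3 and 25.7 CPM in wells with CG43658 and 818, 1539 and 3142 CPM in wells without it, but 98.8% of its counts came from 10 of the 380 wells, described below. The mitochondrial transcript mt:CoI averaged 4091 ± 349 CPM in wells with CG43658 and 8499 ± 2491 CPM in wells without it, and lncRNA:noe 88177 ± 11872 CPM and 59984 ± 9457 CPM.

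Some lists of general neuronal function held no called gene. None of 10 pan-neuronal, 3 acetylcholine, 9 nicotinic, 6 GABA receptor or 20 voltage-gated and potassium channel genes tested passed in either direction. Of 8 tested glutamate receptor genes, GluClalpha was lower on all 6 plates, at 319 ± 72.04 CPM in wells with CG43658 and 776 ± 114.55 CPM in wells without it (edgeR adjusted p = 0.0218). The median log2 difference of the pan-neuronal list was -0.00073 and its summed level 11370.5 CPM in wells with CG43658 (plates 10623 to 12457) and 12740.4 CPM in wells without it (11487 to 13967). The other fast transmitter genes summed to 17.5 CPM in wells with CG43658 (plates 0 to 51.8) and 165 CPM in wells without it (48.9 to 316), the glial list to 212 CPM in wells with CG43658 (plates 77.0 to 418) and 445 CPM in wells without it (0.674 to 1672) and the photoreceptor list to 627 CPM in wells with CG43658 (plates 189.7 to 814) and 1058 CPM in wells without it (929.9 to 1212). No member of these 3 lists passed. Their part in the calls above was not tested. The Kenyon cell list summed to 2052 CPM in wells with CG43658 (plates 1647 to 2841) and 3012 CPM in wells without it (2499 to 3682), the blood cell list to 195 CPM in wells with CG43658 (plates 0.971 to 468) and 298 CPM in wells without it (80.4 to 1056), the fat body list to 2.50 CPM in wells with CG43658 (plates 0.786 to 3.89) and 11.6 CPM in wells without it (0.506 to 38.2) and the muscle list to 7.38 CPM in wells with CG43658 (plates 0 to 34.6) and 2.10 CPM in wells without it (0 to 10.3). No member of these 4 lists passed either.

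**Figure D3:**
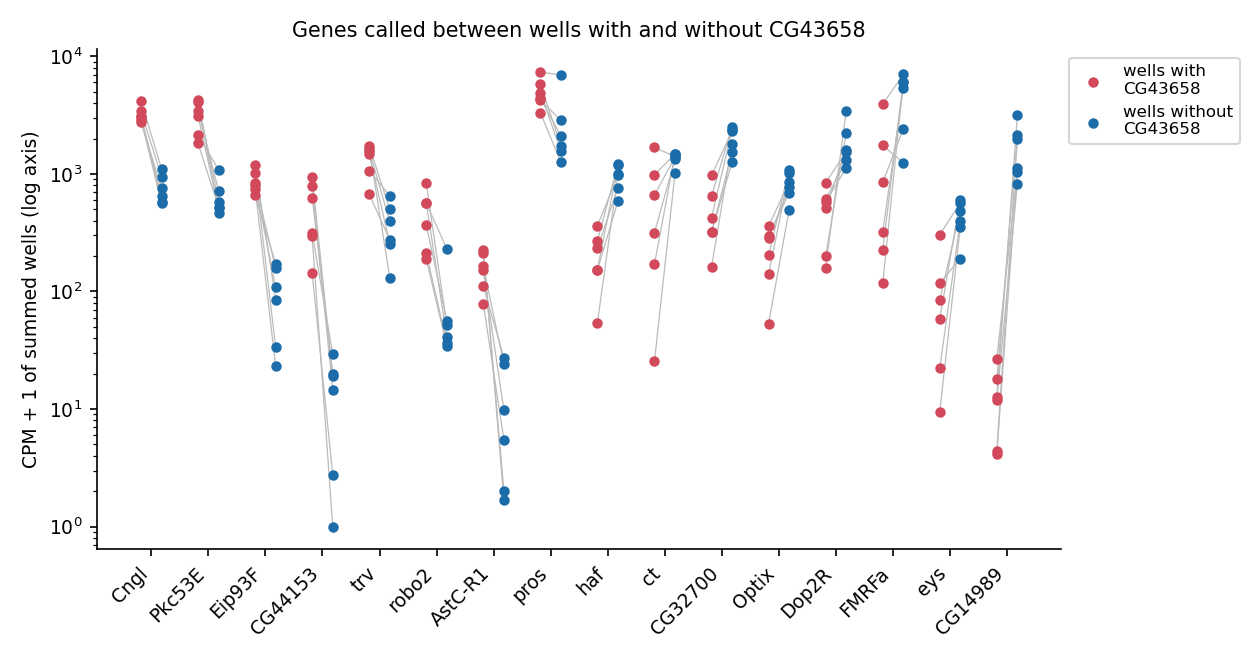
CPM + 1 on a log axis for 16 called genes, in the summed wells with CG43658 (red, left of each pair) and without it (blue, right), with a line joining the classes of each of the 6 plates. The first 8 genes are higher in wells with CG43658 and the last 8 lower; Eip93F, Cngl, Pkc53E, haf and CG32700 do not overlap between classes, whereas pros, ct and FMRFa do.

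The neuropeptide genes gave a second kind of variation. Dh44, spab and FMRFa were all present in 139 of 336 wells, Dh44 and spab alone in 79, Dh44 and FMRFa in 33, and Dh44 by itself in 27. The spab gene was alone in 23 wells, with FMRFa in 14, FMRFa was alone in 3, and 18 wells held none of the 3. CG43658 was present in 61 of the 79 wells with Dh44 and spab but no FMRFa, and in 20 of the 139 with all 3. The 10 highest wells held 47.4% of all spab and 43.7% of all FMRFa counts, against 15.8% for Dh44.

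FMRFa was also higher in wells with spab. The 255 wells with spab were set against the 81 without it, and of 6578 genes edgeR called 8 higher (0.122%) and 3 lower (0.0456%). The classes had median counts of 58607 and 41121, and the median log2 difference of all genes was 1.85. FMRFa had 1613, 4683 and 6153 CPM in wells with spab, against 38.1, 669 and 1264 CPM in wells without it, with no overlap of plates (log2 3.08 ± 0.25, edgeR adjusted p = 1.12e-27). The J domain gene jdp averaged 4112 ± 599 CPM in wells with spab and 2469 ± 762 CPM in wells without it. Averages of 14-3-3epsilon were 2918 ± 395.97 CPM and 1661 ± 467.47 CPM in the same order, and both genes were higher on all 6 plates. Their log2 differences of 0.84 and 0.92 lie under the median of all genes. They lie above the median of genes in at least 10% of wells, 0.51. The small GTPase gene Ras64B had 28.7 to 119 CPM in wells with spab and 0 counts in wells without it. It was present in 6.85% of all thinned wells, so its counts come from few wells and no fold is given. The precursor gene AstA averaged 251 CPM in wells with spab and 2.47 in wells without it. Without Plate_394, Plate_395 or Plate_396 the 11 calls became 4, 6 and 4, and without the 5 wells over 4000 genes 18. With upper-quartile scaling 4 genes were higher and 4 lower. With only genes in at least 10% of wells edgeR called 0 genes (104 at an unadjusted p under 0.05), so the call of FMRFa was lost, at a log2 difference of 2.88.

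The 278 wells with Dh44 and the 58 without it gave 6 higher (0.0921%) and 6 lower (0.0921%) genes of 6512, with median counts of 56417.5 and 30173.5 and reporter shares of 74.8% and 46.6%. The sodium pump gene Atpalpha averaged 19146 ± 2840.1 CPM in wells with Dh44 and 13734 ± 6129.8 CPM in wells without it, and the G protein gene Ggamma30A 10806 ± 1507 CPM and 6006 ± 1108 CPM, both higher on all 6 plates. Their log2 differences of 0.71 and 0.91 lie under the median of all genes, 2.27, and under that of genes in at least 10% of wells, 0.93. CG8248 had 73.3 to 188 CPM in wells with Dh44 and 0 counts without it, and was present in 12.2% of all thinned wells. lncRNA:noe was lower on all 6 plates, at 66056 ± 7312 CPM in wells with Dh44 and 90447 ± 13259 CPM in wells without it. Although Dh44 and spab often met, the level of spab was lower in wells with Dh44, at 2839 ± 723 CPM, against 11691 ± 9315 CPM in wells without it (edgeR adjusted p = 6.57e-09, lower on 5 plates). The difference lay on Plate_389, Plate_391, Plate_394 and Plate_396, where wells without Dh44 had 8812 to 24682 CPM, and these 4 plates hold the 8 AstA wells described next. The part of those wells in the difference was not tested. On Plate_392 spab was at 2810 CPM in wells with Dh44 and 3476 CPM in wells without it, and on Plate_395 at 3782 CPM and 183 CPM. AstA and CG15082 were lower with 4.34 and 1.93 CPM in wells with Dh44, against 1401 and 1392. FMRFa was called higher, at 3963 ± 1724 CPM in wells with Dh44 and 1302 ± 2375 CPM in wells without it. Its log2 difference was 4.26 ± 0.47 (edgeR adjusted p = 4.73e-16), and it was higher on 5 of 6 plates. Without Plate_392, which had 5 wells without Dh44, 38 genes were called in place of 12, and without Plate_389 there were 7. Without the 5 wells over 4000 genes 14 were called, and with upper-quartile scaling 0 higher and 2 lower. With only genes in at least 10% of wells a single gene was called, and it was lower.

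AstA and CG15082 came from few wells. In 8 wells of 4 plates AstA reached 10 or more of 10000 counts, and 99.5% of all AstA counts lay in 10 wells. These 8 wells held 166 to 493 spab counts, 0 Dh44 counts in each and at least 7 counts of CG15082, and 8 of 8 held rdgA, Lim1 and the blood cell gene Pxn, while 0 of 8 held FMRFa. The reporter passed 10 counts in 3 of them, and ChAT was present in 6 and CG43658 in 6. Their median was 114342 counts and 1825 genes. The wells were picked by their AstA level after the values were seen.

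The genes ct, Dop2R and beat-VI were higher in wells with rdgA, and pros was lower. On the 5 plates with at least 5 wells a class, 254 wells with rdgA and 42 without it gave 25 higher (0.404%) and 3 lower (0.0485%) genes of 6182. The classes had median counts of 54685 and 46326 and reporter shares of 73.5% and 46.7% over all plates, and the median log2 difference of all genes was 2.82. The gene ct had 979, 1151, 1222, 1537, 1591 CPM in wells with rdgA, against 3.68, 4.47, 20.8, 171, 462 CPM in wells without it, in rising order, with no overlap (log2 5.41 ± 0.68, edgeR adjusted p = 2.96e-12). Dop2R averaged 1365 ± 270.2 CPM in wells with rdgA and 173 ± 112 CPM in wells without it (SD, n = 5 plates; edgeR adjusted p = 1.11e-07), and beat-VI 702 ± 186 CPM and 133 ± 184 CPM. The adhesion gene beat-IV and the splicing factor gene Sf3b6 averaged 220 and 129 CPM in wells with rdgA and were at 0 counts without it. They were present in 19.0% and 10.4% of all thinned wells. The gene ghi averaged 167 CPM with rdgA and 0.922 without it. Of 10 tested neuropeptide precursor genes FMRFa, spab and AstA were higher. FMRFa averaged 3718 ± 2014 CPM in wells with rdgA and 1464 ± 1985 CPM in wells without it, and spab 4748 ± 1478 CPM and 2098 ± 938 CPM, each higher on 4 of 5 plates. The log2 difference of spab, 1.45, lies under the median of all genes but above that of genes in at least 10% of wells, 0.92. The call of AstA rests on the AstA wells described above, 8 of 8 of which held rdgA. As rdgA was in 86.6% of all thinned wells, these few wells do not show that AstA goes with rdgA. Of 15 tested genes of the homeobox list, which leaves out pros, and 15 tested amine receptor genes, ct and Dop2R were the called members. The genes lower in wells with rdgA were pros, at 2457 ± 728 CPM against 4780.1 ± 1146 CPM, lncRNA:noe and CG14989. The rdgA and CG43658 comparisons use the same wells. Without the 5 wells over 4000 genes 27 genes were called, and without Plate_396 there were 17. With only genes in at least 10% of wells edgeR called 0 genes (182 at an unadjusted p under 0.05).

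The 276 wells with ChAT and the 60 without it gave 6 higher (0.0907%) and 4 lower (0.0605%) genes of 6615, with median counts of 56930 and 30308.5, median mitochondrial shares of 2.28% and 5.14% and a median log2 difference of all genes of 2.55. Ggamma30A averaged 10708 ± 1420.2 CPM in wells with ChAT and 5355 ± 1282 CPM in wells without it, and Atpalpha 19007 ± 2709 CPM and 14054 ± 5292 CPM. Their log2 differences of 1.14 and 0.63 lie under that median. Over the genes in at least 10% of wells the median was 1.09, which Ggamma30A passed and Atpalpha did not. The stress-responsive RNA lncRNA:Hsromega averaged 8346 ± 1563 CPM in wells with ChAT and 5746 ± 1608 CPM in wells without it. The mitochondrial transcripts mt:lrRNA and mt:CoI averaged 12999.9 and 6576 CPM in wells with ChAT, against 23797 and 10872 in wells without it, and were lower on all 6 plates. With upper-quartile scaling Atpalpha and lncRNA:Hsromega turned to the other direction, with 0 genes called higher and 3 lower. Without the 5 wells over 4000 genes 14 were called. No tested transmitter gene passed (ChAT defined the classes and was not tested), and the given markers Dh44, rdgA, spab and CG43658 did not either. VGlut was present in too few wells of any plate for such a fit. The 9 wells with VGlut held a median of 22672 counts and 1940 genes, and the 327 without it 53980 counts and 1039 genes.

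Wells with the reporter transcript also differed in composition from wells without it. The 241 wells with 10 or more reporter counts were compared with the 139 with 0 to 9, and of 6751 genes edgeR called 11 higher (0.163%) and 8 lower (0.119%), 12 of the 19 in the same direction on all 6 plates. The median log2 difference of all genes was 1.01. Without the 5 wells over 4000 genes 31 genes were called. Mitochondrial transcripts took a median of 2.53% of counts in reporter wells and 3.37% in the others. CG32700 had lowest, median and highest plate values of 1215, 1777 and 2313 CPM in wells with the reporter, against 89.4, 376 and 849 CPM in wells without it, with no overlap (log2 2.22 ± 0.32, edgeR adjusted p = 9.02e-08). The dopamine receptor gene Dop1R1 averaged 743 ± 217 CPM in wells with the reporter and 214 ± 195 CPM in wells without it (edgeR adjusted p = 0.00224). The surface receptor genes Drl-2, beat-VI and klg averaged 828, 706 and 1679 CPM in wells with the reporter, against 199.8, 138 and 785 in wells without it. The genes eys and CG8248 averaged 402 ± 154 CPM and 143 ± 55.8 CPM with the reporter, against 41.4 ± 70.7 CPM and 4.06 ± 6.36 CPM without it. Ggamma30A averaged 10736 ± 1519.7 CPM and 7426 ± 2305 CPM in the same order. Its log2 difference of 0.51 lies under the median of all genes but above that of genes in at least 10% of wells, 0.34.

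In the other direction, Cngl had 856, 1040.3 and 1603 CPM in wells with the reporter and 2682, 3123 and 3272 CPM in wells without it, with no overlap of plates (log2 -1.49 ± 0.22, edgeR adjusted p = 2.39e-07). Pkc53E averaged 1135 ± 306 CPM in wells with the reporter and 2458 ± 886 CPM in wells without it, and CG45263 903 ± 303 CPM and 2156 ± 702 CPM. FMRFa averaged 2756 ± 1735 CPM in wells with the reporter and 6614 ± 3633 CPM in wells without it, and spab 3365 ± 1017 CPM and 5818 ± 3447 CPM, each lower on 5 of 6 plates. They were the called members among 14 tested neuropeptide precursor genes. The 10 highest wells held 43.7% of FMRFa counts, and by presence FMRFa was not rarer in reporter wells. FMRFa with Dh44 and spab was in 139 thinned wells, 109 of them reporter wells. With Dh44 alone it was in 33 wells (30 with the reporter), with spab alone in 14 (4) and by itself in 3 (1). Of all 336 thinned wells 235 had the reporter. lncRNA:noe was lower on all 6 plates, with 49587, 63019 and 69491 CPM in wells with the reporter and 78393, 87561 and 120419 CPM in wells without it. Optix was higher in wells with the reporter on 5 of 6 plates and the only one of 18 tested homeobox genes to pass. ChAT, Dh44, rdgA, CG43658 and the 10 pan-neuronal genes did not pass. The reporter and CG43658 comparisons use the same wells. The part of depth and mitochondrial share in these differences was not tested.

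**Figure D4:**
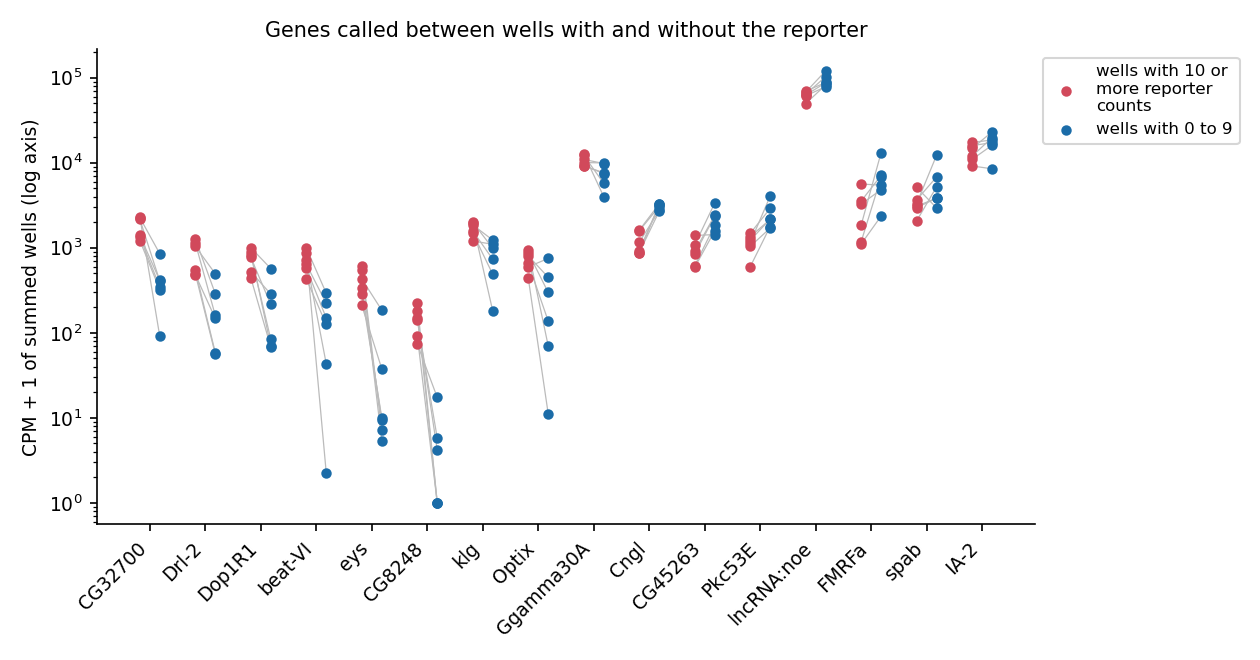
CPM + 1 on a log axis for 16 of the 19 called genes, in the summed wells with 10 or more reporter counts (red, left of each pair) and with 0 to 9 (blue, right), with a line joining the classes of each of the 6 plates. The first 9 genes are higher with the reporter and the last 7 lower; CG32700, beat-VI, CG8248, Cngl and lncRNA:noe do not overlap between classes.

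A small group of wells carried CG14989. In 8 wells CG14989 took 249 to 715 of 10000 counts, and 2 further wells, both on Plate_392, had 19 and 40. The 10 wells lay on all 6 plates, held a median of 53909.5 counts and 1049.5 genes, and 5 of them had the reporter. Gad1 was present in 8 of the 10, VGAT in 6, ChAT in 3, Dh44 in 3, Lim1 in 2 and CG43658 in 0. The wells with 40 and 19 CG14989 counts, the first of which had 6274 genes, held 18 and 7 counts of ChAT and 1 and 2 of Dh44. In the other 8 wells ChAT and Dh44 had at most 1 count each. Over all wells Gad1 and CG14989 met in 11 wells (2.25 expected). Of the 5 wells with over 4000 genes, 4 held CG14989 and 4 held Gad1. The 4 wells with none of the 5 given markers all held CG14989, and 3 of them Gad1. CG14989 was called lower in wells with each of the 5 markers, and these calls rest on the same few wells, which were chosen after their values were seen.

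Variation between wells was ranked against other genes of the same level. For 1387 genes with a mean of at least 50 CPM on every plate, the squared coefficient of variation over the wells of a plate was set against a smooth trend on the mean, and the difference is given in log10 units as the median over plates. It was above the trend on all 6 plates for 53 genes and below it on all 6 for 152. The largest was that of CG14989 (1.27), the few-well gene above. The peptide precursor genes FMRFa (0.73, plates 0.59 to 0.89) and spab (0.67, plates 0.20 to 0.84) were among the next. Mitochondrial transcripts also stood above the trend, with mt:lrRNA at 0.72, mt:CoI at 0.60, mt:CoII at 0.55, mt:ND5 at 0.44 and mt:CoIII at 0.43. The others of the 15 largest among genes above the trend on every plate were fmt (0.75), beat-IIIb (0.41), the activity-regulated gene sr (0.38), lncRNA:noe (0.33), Mmp2 (0.31), pros (0.29) and tud (0.27). CG43658 lay at 0.24 and above the trend on all 6 plates. In contrast rdgA (-0.01) and ChAT (-0.04) lay near it, each above on 3 plates, and Dh44 (-0.21) lay below it on all 6. Genes with a mean of 100 to 1000 counts had a median squared coefficient of variation of 0.717 to 1.20 on single plates, against 0.272 to 0.555 for ERCC spike-ins at that mean. At 10 to 100 counts, where 718 to 1356 genes of a plate lay, the values were 3.60 to 6.09 for genes and 2.55 to 4.45 for spike-ins.

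**Figure D5:**
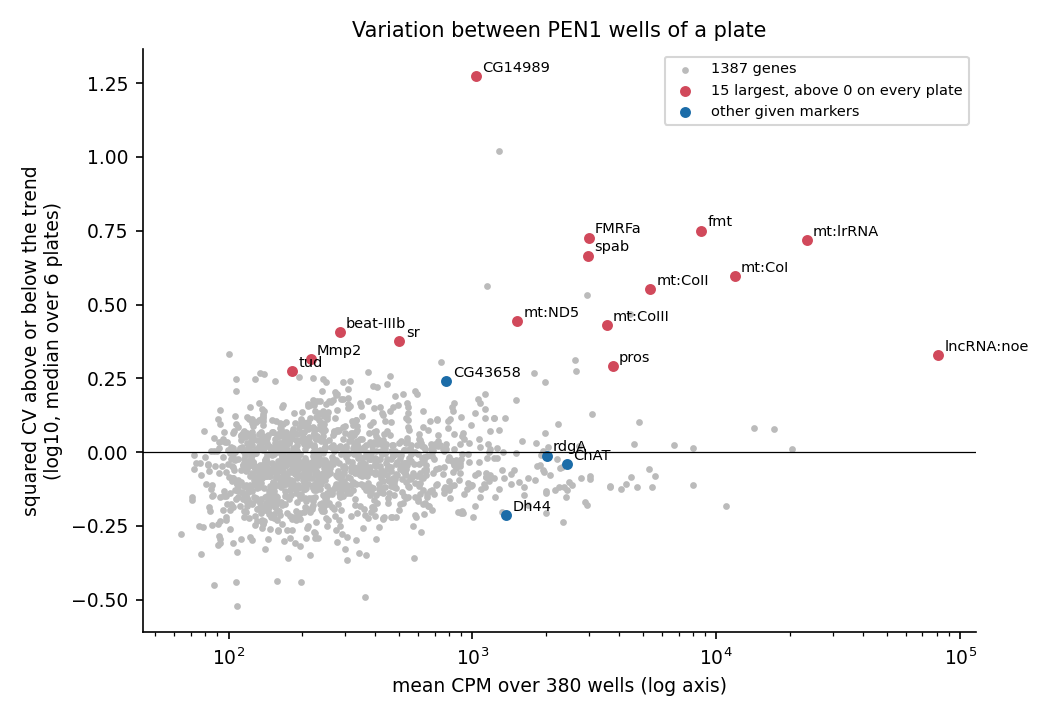
Median over the 6 plates of the difference of log10 squared coefficient of variation from its trend (vertical axis) against mean CPM over 380 wells (log axis), one point a gene. CG14989, FMRFa, spab and mitochondrial transcripts lie above the trend, CG43658 at 0.24, ChAT and rdgA near 0 and Dh44 at -0.21.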

How the data were processed

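The deposited single-cell tables hold whole-number counts per gene and well, not normalized by the authors, with 17612 genes, 92 ERCC spike-ins and 9 transgenes. The submitters' processing notes name STARsolo and edgeR without versions. The genome build, the annotation, strand use and whether counts are unique molecules are not given in the sources used here, so no coordinates are printed. Symbols came from a reference table (17540 of 17612 genes), and 411 of 412 list symbols matched.

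Wells were kept by position and by at least 500 genes, and plate replicates 1 to 6 follow the order of the plate labels. Each well was thinned at random to 10000 counts for shares and classes, and 44 wells below that depth were left out of them. For each split, counts as deposited were summed per plate and class where both classes had at least 5 wells, on at least 4 plates. The sums were fitted with edgeR 4.0.16 in R 4.3.3 (filterByExpr, TMM, glmQLFit, glmQLFTest) with the plate as a block, since both sums come from the same plate. The split gene, spike-ins and transgenes were not tested. Benjamini-Hochberg adjustment ran over every gene tested in a split, and a gene was called at an adjusted p under 0.05. CPM of a class are summed counts scaled to 1000000, so wells with more counts weigh more. The labels do not say how the plates came to be separate samples (flies, days), and the spread between plates may be technical. The p-values come from a model of summed counts that shares information on spread between genes. They do not measure how far the plates agree on a gene. In the Dh44 comparison spab had an edgeR adjusted p of 6.57e-09 with 1 plate in the other direction. No sequences are printed.

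Named were the given markers, the transmitter and pan-neuronal lists, the 12 (reporter) or 6 (markers) largest differences per direction among called genes with at least 20 CPM in the higher class and the same direction on every plate, the 15 most variable genes, up to 5 genes per marker with a correlation of at least 0.3, and the 3 most frequent members and 1 called member of other lists. Genes outside this rule (further called list members such as Hsp23, Hsp27, Hsp67Bc and svr, and genes found in few wells) were chosen after their values were seen. The markers, lists and members were chosen with earlier results of these data known. Simulated data with known changes were used to test the scripts: with 8-fold changes, edgeR called 8 of 8 changed genes of at least 200 CPM in the CG43658 comparison and 13 of 47 at any level (6620 genes). In the ChAT comparison (6614 genes) it called 4 of 7 and 4 of 48, in the Dh44 comparison 3 of 9 and 3 of 47. Recovery was lowest in the rdgA comparison, at 1 of 5 and 1 of 46. With 4-fold changes of genes of at least 200 CPM it called 0 in the ChAT, Dh44, rdgA and spab comparisons. A gene that did not pass there is therefore not shown to be unchanged. Alternatives were DESeq2 1.42.0, upper-quartile scaling, no filter, thinned sums, no block, other well filters and class thresholds, reporter wells only and leaving out each plate. Scripts ran under Python 3.11.15 and used statsmodels 0.14.6, scipy 1.17.1, pandas 2.3.3 and numpy 2.4.6, with figures from matplotlib 3.10.9.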

Additional observations from a re-analysis of the deposited data

Results flagged for a closer look

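In each of the first 6 results 1 plate stood far from the other 5, which chance alone gives in about 1 of 20 groups. Many more groups of plates than these were screened, so some such results are to be had from chance alone. Plate_389 had spab in 86.2% of wells, and the next plate 75.5%. Plate_392 had VAChT in 55.0% of wells, and the next 38.6%. In wells without the reporter, CG8248 reached 16.4 CPM on 1 plate (4.79 on the next) and eys 184 CPM (36.7 on the next). In wells with CG43658, Mmp2 reached 857 CPM on 1 plate (393.8 on the next) and eys 303 CPM (117 on the next).

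Reporter transcript was also found outside the wells described. At positions E12 to H12 of Plate_394, Plate_395 and Plate_396 it reached 616 counts, and 9 of those 12 wells held at least 500 genes and 8 held at least 10 reporter counts. At the same positions of Plate_389, Plate_391 and Plate_392 it reached 64. Of 172 wells under 500 genes, 25 had at least 10 reporter counts. A transgene the labels do not name, myr-GFP-p10, had at least 10 counts in 250 of the 380 wells, 208 of them reporter wells and 42 not.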

How the results depend on the processing

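At 10000 counts a well a median of 738.5 genes was seen, so rarer transcripts can be missed. The wells differed in depth between classes, classes were unequal in size, and the counts of calls moved with the tool, and the CG43658 comparison had 33 to 439 calls over its alternatives, of which 31 to 69 were among its 69. DESeq2 called 538 genes for the reporter (495 higher), 1097 for ChAT (1078 higher), 873 for Dh44 (823 higher), 941 for rdgA (926 higher), 824 for spab (806 higher) and 439 for CG43658 (102 higher), and shared 14, 2, 6, 14, 5 and 64 genes with the edgeR calls in that order. Without the replicate block, which the shared plates call for, edgeR called 5, 119, 0, 122, 0 and 36 (at an unadjusted p under 0.05, 326 for Dh44 and 198 for spab). With only genes in at least 10% of wells (added after the data were seen) it called 6, 4, 1, 0, 0 and 33 (unadjusted, 182 for rdgA and 104 for spab). No filter gave 33 (reporter), 28 (ChAT) and 21 (spab), and upper-quartile scaling 3 (ChAT) and 2 (Dh44). Sums of thinned counts gave 6 for ChAT and 6 for Dh44. Wells with at least 1000 genes gave 6 (spab) and 35 (CG43658), and could not be fitted for the other splits. Wells with at least 300 genes gave 29 for the reporter. Without wells over 4000 genes (added later) there were 31 for the reporter and 18 for spab. Reporter classes of at least 1 count, at least 50 counts or at least 1 thinned count gave 12, 50 and 31, and Dh44 classes of at least 3 counts gave 50. Reporter wells alone gave 4 for ChAT and could not be fitted for Dh44 and rdgA. Leaving out a plate gave 13 to 27 (reporter), 7 to 13 (ChAT), 7 to 38 (Dh44), 17 to 28 (rdgA), 4 to 11 (spab) and 55 to 84 (CG43658). Genes in at least 50% of wells fell to 169 at 3 counts (278 to 297 without a plate). Pairs on 1 side on every plate were 7, with 18 at 3 counts, 4 in reporter wells and 7 to 11 without a plate. Genes above the variation trend on every plate were 35 in reporter wells and 63 to 79 without a plate. Signs turned for lncRNA:Hsromega (-0.11) and Atpalpha (-0.15) in the ChAT comparison with upper-quartile scaling, lncRNA:noe (0.0083) in the rdgA comparison with classes of at least 3 counts, VGlut with Gad1 (-0.050) at 3 counts, rdgA with the reporter (-0.000377) and CG43658 with the reporter (0.00897) in reporter wells, and the variation of mt:ND5 (-0.053) in reporter wells. For single genes and pairs, 1213 alternative values kept direction and side, 324 kept direction only, 31 moved and 7 reversed. The cause was not tested.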

Other observations

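Some transcripts came almost wholly from 1 or a few wells, and these genes were chosen after their values were seen. The neuropeptide precursor gene SIFa had 97.6% of its counts in a single well and was present in 22 of 336 thinned wells, which were 52.5% of wells on Plate_392, the plate of that well, 1.89% on Plate_395 and 0% on the other 4. CG3823 had 67.2% of its counts in 1 well and 95.5% in 10, and its called differences in the reporter and spab comparisons rest on those wells. The glial gene Gs2 had 51.3% and nrv2 53.4% of their counts in 1 well. The hormone subunit gene Gpb5, in contrast, was spread over 48 thinned wells on all 6 plates, and its highest well held 8.04% of its counts.

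In 18 wells on 6 plates spab reached at least 10000 CPM. Lim1 was present in 18 of them, rdgA in 17, ChAT in 16, Dh44 in 9, FMRFa in 10 and AstA in 8, and the reporter passed 10 counts in 8. Their median was 91582.5 counts and 1221 genes.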
